A study of Mus musculus with 4 samples.

Results

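Kit and Kitl were the 2 genes described here, taken by symbol from the 32285 genes of the deposited count tables. Kit encodes a receptor tyrosine kinase of the cell surface, and Kitl encodes its ligand, also called stem cell factor. Single cells came from 2 libraries of testicular organoids (TOs) and 2 libraries of mouse testis. The TOs were built from dissociated testis cells of 6-day-old ICR mice and kept for 28 days in a medium with serum replacement, FSH and testosterone, and the testes were taken from ICR mice aged 28 days. One label gives day 21 for the TOs at dissociation while the series design gives 28 days. The organoids came from 2 independent batches, but how the batches relate to the libraries is not stated. Neither the number of mice behind a library nor pooling is given per library, so p-values measure the spread between these libraries only. The cells were unsorted, and each library holds whatever cells survived dissociation.

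In the testis, KITL is made by somatic cells, above all the Sertoli cells that nurse the germ cells, and KIT marks the germ cells that have left the undifferentiated state. Binding of KITL makes KIT pair up and phosphorylate itself, which recruits PI3-kinase, SRC-family kinases and adaptors of the RAS pathway, and this signal is needed for the differentiating spermatogonia to survive and divide. Leydig cells, the steroid-making cells of the interstitium, also carry KIT, as do mast cells and melanocytes. KITL exists as a form that stays in the membrane and as a form that is cut off and released.

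Kit (ENSMUSG00000005672) lies on the plus strand of GRCm38 at chr5:75574916-75656722, and Kitl (ENSMUSG00000019966) on the plus strand at chr10:100015630-100100416. Both genes have a coding stretch that one isoform carries and another lacks, and these stretches are shown because they set the form of the receptor and of the ligand. In Kit the stretch is the last 12 bases of exon 9 (chr5:75639147-75639158), reached by the later of 2 splice donors, and it adds an in-frame insert beside the membrane-spanning domain. In Kitl the stretch is the whole of exon 6, 84 bases at chr10:100080857-100080940, which codes for the main site at which the membrane form is cut. In the lines below the capitals mark the stretch and the lower case marks 15 bases of transcript on each side, 5′ to 3′, read from GRCm38 with the GENCODE vM21 exons.
Kit-201: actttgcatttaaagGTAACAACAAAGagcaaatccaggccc
Kit-204: actttgcatttaaagagcaaatccaggccc
Kitl-202: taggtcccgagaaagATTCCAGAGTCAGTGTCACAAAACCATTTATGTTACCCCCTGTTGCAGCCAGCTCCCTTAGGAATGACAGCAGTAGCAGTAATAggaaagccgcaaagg
Kitl-201: taggtcccgagaaagggaaagccgcaaagg
The Kit stretch ends 3568 bases before the 3′ end of its transcript and Kitl exon 6 ends 4653 bases before the 3′ end of Kitl-202. The libraries were read from the 3′ end of each RNA, and the deposited counts are 1 number per gene. The values below therefore sum the isoforms, and nothing in them tells a receptor with the insert from one without, or membrane KITL from released KITL.

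After quality filters and removal of doublets, 9762 and 8732 cells remained in the TO libraries, replicate 1 first, and 9911 and 9513 in those of the testes. Median depth was 5369 and 7438 unique molecular identifiers (UMIs, 1 for each captured RNA molecule) per TO cell and 2546 and 3202 per testis cell. Any pair of libraries shared 30 to 55 cell barcodes. Cells were clustered without Kit and Kitl and named by fixed markers, so that each name means a cluster that is like that cell type by its markers. UMIs were then summed per library and cell type and are given as CPM (counts per 1e6 UMIs of that sum). Pairs of values are in the order of replicates 1 and 2. A gene is called where edgeR's quasi-likelihood test over all genes of a cell type gave an adjusted p below 0.01 and a log2 fold change beyond 1 in either direction. An exact permutation test of 2 libraries against 2 cannot go below a two-sided p of 0.333.

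The receptor was highest in Leydig cells and differentiating spermatogonia in both kinds of library. In the TOs the order of Kit levels was Leydig cells at 203.7 CPM ± 50.6 (SD, n = 2), differentiating spermatogonia at 107 CPM ± 14.8, leptotene and zygotene spermatocytes at 50.1 CPM ± 7.42 and undifferentiated spermatogonia at 23.7 CPM ± 4.81. Each of these 4 was apart from the next, since the libraries of neighbouring types did not overlap. In the testes differentiating spermatogonia held 110 CPM ± 7.19 (SD, n = 2) and Leydig cells 102 CPM ± 73.8, and these overlapped. Undifferentiated spermatogonia followed at 36.8 CPM ± 6.63, overlapping leptotene and zygotene spermatocytes at 27.4 CPM ± 7.39.

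**Figure D1:**
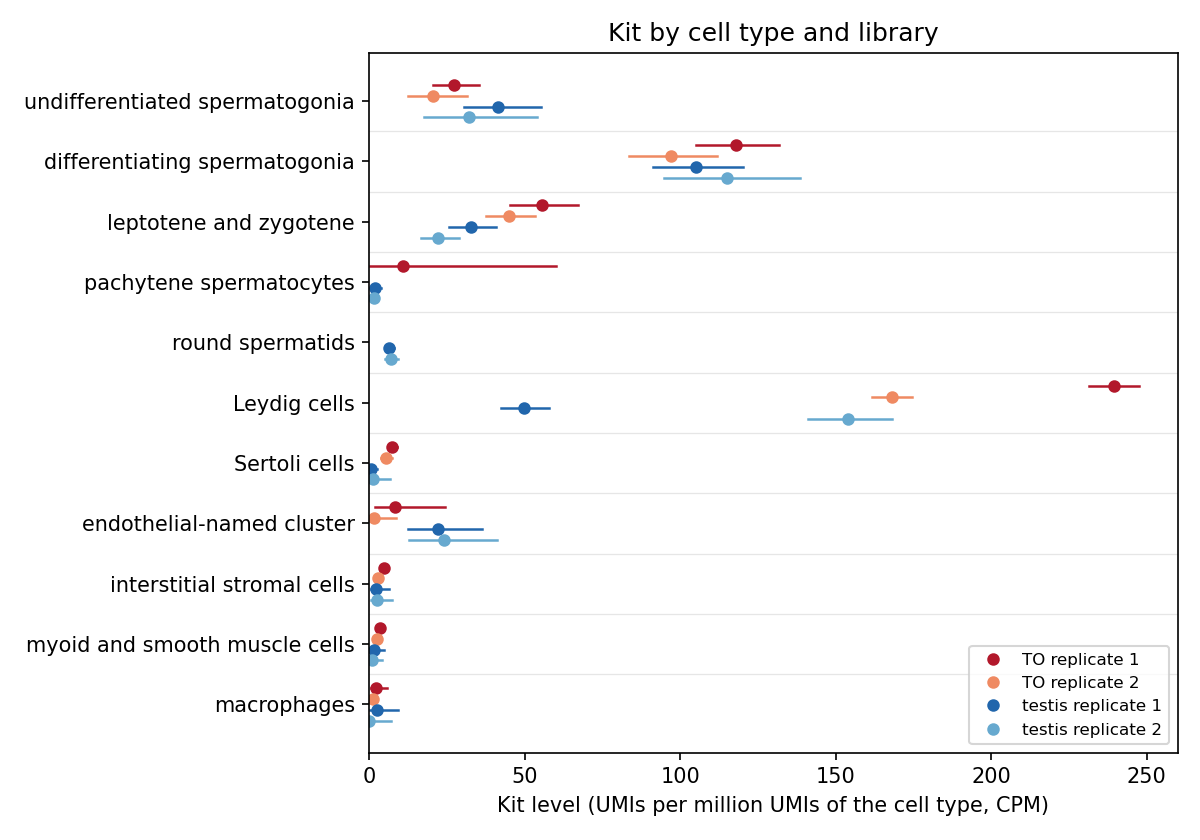
Kit level (CPM, horizontal axis, linear from 0) by cell type (vertical axis) and library. Each point is 1 sum of at least 20 cells and its bar the exact 95% Poisson interval, which covers counting error only. The 4 libraries lie between 96.9 and 118 CPM in differentiating spermatogonia, while testis replicate 1 lies apart from the other 3 in Leydig cells.

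Kit in differentiating spermatogonia lay in the same range in TOs and testes. These germ cells, the ones that need the receptor, held 118 and 96.9 CPM in the TOs, from 312 and 185 Kit UMIs in 342 and 228 cells. In the testes they held 105 and 115 CPM, from 211 and 112 UMIs in 434 and 164 cells. The 4 values overlapped, with no library standing apart. The log2 fold change of TO over testis was -0.09 ± 0.18 (SE, n = 2 and 2) with an edgeR adjusted p of 0.80, and it was 0.015 without TO replicate 2. In the same fit 14.3% of 12027 genes were called.

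Shares of cells with a Kit UMI overlapped once depth was matched. With each differentiating spermatogonium thinned to 1500 UMIs, 12.4% and 10.5% of TO cells held at least 1 Kit UMI (exact 95% binomial intervals 9.08 to 16.4% and 6.86 to 15.3%). In the testes 8.99% and 14.6% did (6.47 to 12.1% and 9.61 to 21.0%). Macrophages, which should lack Kit, gave 0.810% and 0.288% in the TOs and 0 of 242 and 0 of 110 cells in the testes (exact upper limits 1.51% and 3.30%), at median depths of 6417, 5981, 3096 and 4949 UMIs. All intervals cover counting error only. Without thinning the shares were 54.1% and 49.6% in the TOs and 33.2% and 42.7% in the testes. The unthinned shares did not overlap, but the median cell held 7711 and 8655 UMIs in the TOs against 4193 and 5476 in the testes.

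Before and after this stage Kit was lower in both. Undifferentiated spermatogonia, the stem and progenitor cells, held 27.1 and 20.3 CPM in the TOs and 41.5 and 32.1 CPM in the testes. The TO libraries were both below the testis libraries, but the difference of -0.75 ± 0.35 (log2, SE, n = 2 and 2) did not pass the test, with an edgeR adjusted p of 0.19, in a fit that called 9.89% of 10646 genes. The counts behind it were 55 and 20 UMIs against 47 and 14. The cell with most Kit in testis replicate 2 held 7 of those 14, so that level rested largely on a single cell. Where cells were assigned one by one by their own marker score, the log2 fold change was 2.52 instead (edgeR adjusted p = 0.019, not called). The shares of cells with a Kit UMI gave no steady order either. Thinned as above, the mean share was 4.18% in the TOs and 3.64% in the testes, opposite to the CPM. Thinned to 3000 UMIs per cell, it was 4.22% against 7.45%. Over all 4 libraries Kit was higher in differentiating than in undifferentiated spermatogonia by 1.80 ± 0.17 (log2, SE), with an edgeR adjusted p of 3.2e-07, in a comparison that called 15.5% of genes.

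Kit was then lower in leptotene and zygotene spermatocytes, which have entered meiosis, than in differentiating spermatogonia. That step was -1.47 ± 0.22 (log2, SE, edgeR adjusted p = 0.0013), beside 19.7% of genes called. Early spermatocytes held 55.4 and 44.9 CPM in the TOs and 32.6 and 22.1 CPM in the testes, without overlap. The log2 fold change of 0.71 ± 0.32 had an edgeR adjusted p of 0.087 and was not called. In this fit 28.4% of genes were called. Without testis replicate 1 it was 1.11 and called (edgeR adjusted p = 0.0038).

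That difference came with a different mix of early and later cells. The cluster led by Sdk1, with Dmc1 and Prdm9, held 64.0 and 52.0 CPM of Kit in the TOs and 74.0 and 63.3 CPM in the testes, in 212, 262, 265 and 179 cells. The cluster with Meiob and Piwil1 held 0 and 2.45 CPM in the TOs and 0.74 and 1.87 CPM in the testes, in 38, 45, 156 and 221 cells. Within the larger cluster alone the log2 fold change was -0.28 (edgeR adjusted p = 0.53), so its sign turned. At a finer clustering it was -0.38 (edgeR adjusted p = 0.68).

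Later germ cells held less Kit over each class as a whole. Pachytene spermatocytes of the testes held 1.98 and 1.34 CPM, and the 43 and 19 pachytene cells of the TOs held 1 and 0 Kit UMIs, where 0 allows up to 50.7 CPM (3 counts). Round spermatids, named in the testes alone, held 6.40 and 6.84 CPM from 82 and 41 UMIs, against 0.10 and 0.63 CPM expected from free somatic RNA. Among them a cluster of 657 and 459 cells led by Cntn5 held 26.2 and 12.3 CPM, from 36 and 14 UMIs. Spermatids are known to make a truncated KIT from a promoter inside the gene, which 3′ counts would include. Elongating spermatids held 0.84 and 1.45 CPM.

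Leydig cells of the TOs held more Kit than any other cell type named there. They held 239 and 168 CPM in the TOs, from 3492 and 2637 Kit UMIs in 1250 and 1242 cells. In the testes they held 49.7 and 154 CPM, from 168 and 515 UMIs in 530 and 320 cells. The testis libraries differed from each other more than testis replicate 2 differed from the TOs, and testis replicate 1 stood apart. The log2 fold change was 0.91 ± 0.51 (SE, n = 2 and 2) with an edgeR adjusted p of 0.25, beside 14.3% of 15141 genes called. Without testis replicate 1 it was 0.36 (edgeR adjusted p = 0.55), and without testis replicate 2 it was 2.01 and called (edgeR adjusted p = 0.0091).

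The Leydig cells of testis replicate 1 also differed in other measures. They held a median of 6177 UMIs per cell, against 9893 in testis replicate 2 and 12017 and 13160 in the TOs. Cyp17a1, a steroid enzyme, was at 3874 CPM there and at 11187 CPM in testis replicate 2. In the TOs it was lower still, at 1452 and 88.1 CPM. The interstitial stromal marker list summed to 1598 CPM in them, against 436 CPM in testis replicate 2 and 512 and 477 CPM in the TOs. The estimated share of germ cell RNA in Leydig cells was 16.9% and 8.96% in the testes and 4.16% and 1.23% in the TOs. The part of these differences in the Kit level was not tested.

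The share of Leydig cells with the receptor was lowest in testis replicate 1 as well. Thinned to 1500 UMIs, 27.3% and 18.3% of TO Leydig cells held a Kit UMI (exact 95% binomial intervals 24.8 to 29.8% and 16.2 to 20.5%). In the testes 8.87% and 19.4% did (6.59 to 11.6% and 15.2 to 24.1%), so the groups overlapped. Unthinned, the shares were 75.7% and 64.9% in the TOs and 23.0% and 70.0% in the testes. The cell with most Kit held 18 and 23 UMIs in the TOs and 6 and 10 in the testes. For comparison, 0 cells of any library carried at least 2 mast cell markers, and the 64 and 15 testis cells with at least 2 melanocyte markers held 2 and 0 Kit UMIs.

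The Leydig cells fell into clusters that carried different amounts of the receptor. The cluster led by Cyp17a1, with 69.5% and 57.9% of the Leydig cells of the TOs and 87.5% and 89.4% of those of the testes, held 275 and 218 CPM of Kit in the TOs and 47.9 and 159 CPM in the testes. The cluster led by Stc1, with 23.3% and 34.5% of TO Leydig cells, held less, 98.9 and 81.3 CPM. In the testes the order was the other way, since this second cluster held 102 CPM in the 30 cells of testis replicate 1 and 337 CPM in the 8 cells of testis replicate 2. Leydig cells of the cluster led by Ube2c, with the division genes Mki67 and Top2a, held 138 and 107 CPM in the TOs and 33.5 and 61.3 CPM in the testes. A cluster of 25 cells of TO replicate 1 led by Lsamp held 869 CPM, from 62 UMIs, and had 3 cells in TO replicate 2 and 0 in the testes. The clusters were formed on these same cells, and no test was run between them.

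The markers of Leydig cells also varied between libraries. Insl3, a Leydig hormone, was at 2198 and 143 CPM in TO Leydig cells and at 3403 and 1741 CPM in those of the testes. Star, which brings cholesterol into mitochondria, was at 28.5 and 7.8 CPM against 392 and 726 CPM, while Cyp11a1, the first enzyme of steroid synthesis, was at 3199 and 1502 CPM against 3171 and 2826 CPM. Hsd3b1 was higher in the TOs, at 3421 and 2256 CPM against 1475 and 976 CPM, while Fdx1 and Lhcgr were lower there. The 2 TO libraries thus differed from each other in Insl3 by far more than in Kit. Their part in the Kit level was not tested.

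The TO effect on Kit was larger in Leydig cells than in differentiating spermatogonia by 1.07 ± 0.34 (log2, SE), with an edgeR adjusted p of 0.042, which did not pass the threshold of 0.01. In that comparison 7.27% of genes were called. Of the Kit UMIs in kept cells, Leydig cells gave 78.5% and 75.4% in the TOs and 26.2% and 63.7% in the testes. They made up 12.8% and 14.2% of kept TO cells and 5.35% and 3.36% of kept testis cells. Differentiating spermatogonia gave 7.01% and 5.29% in the TOs and 32.9% and 13.8% in the testes. These shares combine the number of cells recovered with the level in each. Barcodes removed by the filters are left out of them. Over all barcodes the libraries held 8189 and 6913 Kit UMIs in the TOs and 882 and 1064 in the testes.

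**Figure D2:**
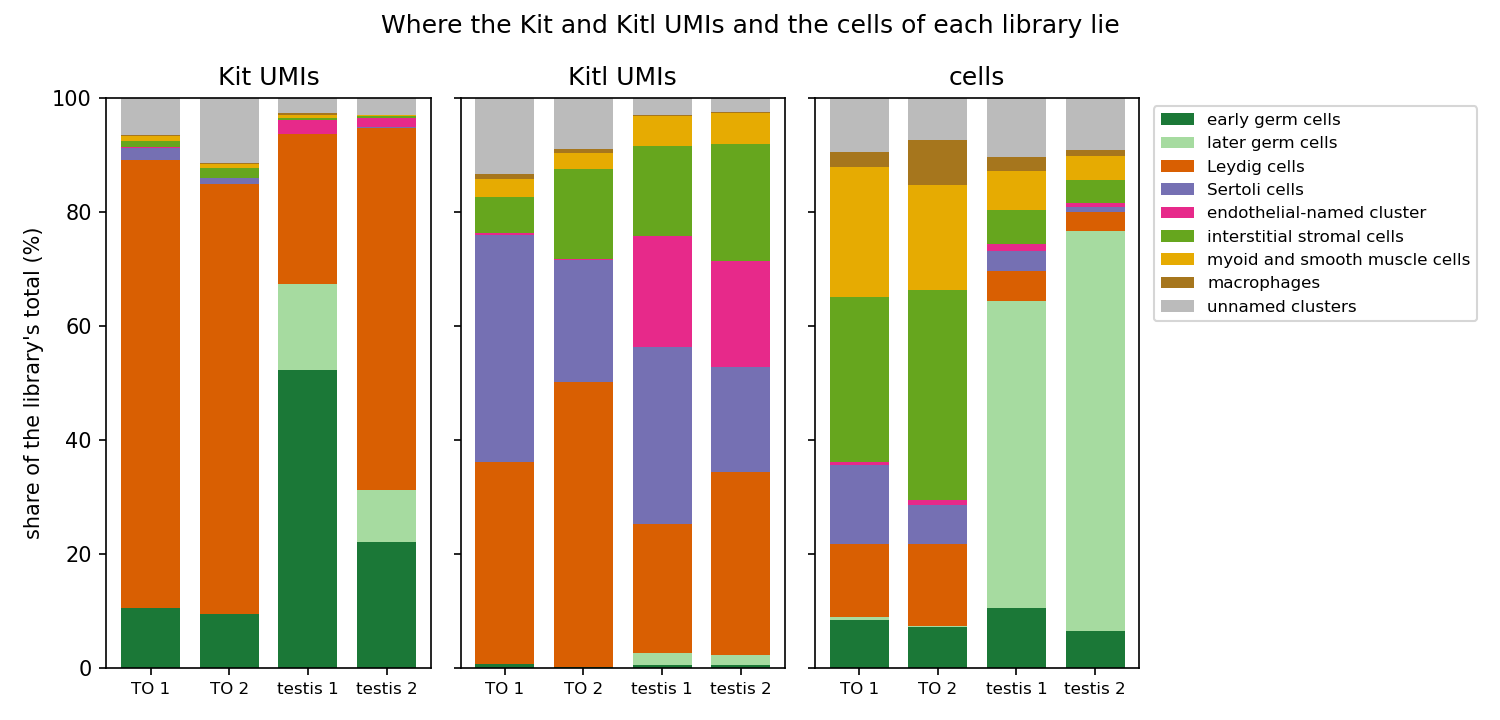
Share (percent of each library's total over kept cells, vertical axis) of Kit UMIs, Kitl UMIs and cells that each cell type gave, as stacked bars for the 4 libraries. Leydig cells gave 78.5% and 75.4% of Kit UMIs in the TOs, and the endothelial-named cluster gave 19.5% and 18.6% of Kitl UMIs in the testes.

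Kit was low in the other somatic cells. Sertoli cells held 7.40 and 5.24 CPM in the TOs, from 98 and 37 UMIs, and 0.43 and 1.17 CPM in the testes, from 1 UMI each. Kit was higher in the TO Sertoli cells by 3.39 ± 0.72 (log2, SE, n = 2 and 2, edgeR adjusted p = 0.0089), beside 22.6% of 14043 genes called. The call rested on few molecules, and it was lost with each library left out in turn (edgeR adjusted p from 0.027 to 0.11), under DESeq2, without doublet removal (1.79) and with cells assigned one by one. The level expected from free RNA alone was 9.06 and 2.49 CPM in the TOs and 3.36 and 1.66 CPM in the testes, so TO replicate 1 was below its background. A TO cluster of 219 and 103 Sertoli cells led by Wfdc18 held 32.4 and 22.7 CPM, while the main Sertoli cluster held 2.52 and 1.39 CPM in the TOs and 0.44 and 1.19 CPM in the testes.

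Interstitial stromal cells held 4.68 and 2.65 CPM of Kit in the TOs and 2.18 and 2.50 CPM in the testes. Peritubular myoid and smooth muscle cells, the contractile sheath of the tubules and vessels, held 3.43 and 2.51 CPM against 1.62 and 0.71 CPM. Neither difference was called, with edgeR adjusted p-values of 0.44 and 0.22. Macrophages held at most 2.59 CPM in any library, and the 0 UMIs of testis replicate 2 allow up to 5.59 CPM.

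The ligand was highest in TO Sertoli and Leydig cells and, in the testes, in endothelial cells. In the TOs Kitl was at 406 CPM ± 18.9 (SD, n = 2) in Sertoli cells and 374 CPM ± 51.2 in Leydig cells, which overlapped. It was at 84.5 CPM ± 10.1 in interstitial stromal cells, overlapping the endothelial-named cluster at 86.5 CPM ± 78.4. Pachytene spermatocytes at 49.2 CPM ± 21.7, macrophages at 45.2 CPM ± 32.3 and myoid and smooth muscle cells at 37.4 CPM ± 6.71 came next and overlapped. In the testes it was at 549 CPM ± 2.98 (SD, n = 2) in endothelial cells, 300 CPM ± 60.4 in Sertoli cells, 248 CPM ± 35.1 in stromal cells and 141 CPM ± 16.6 in Leydig cells. Among these 4, Sertoli and stromal cells overlapped and the rest were apart. Myoid and smooth muscle cells held 58.4 CPM ± 4.71, and all other named types of the testes had means below 5 CPM.

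**Figure D3:**
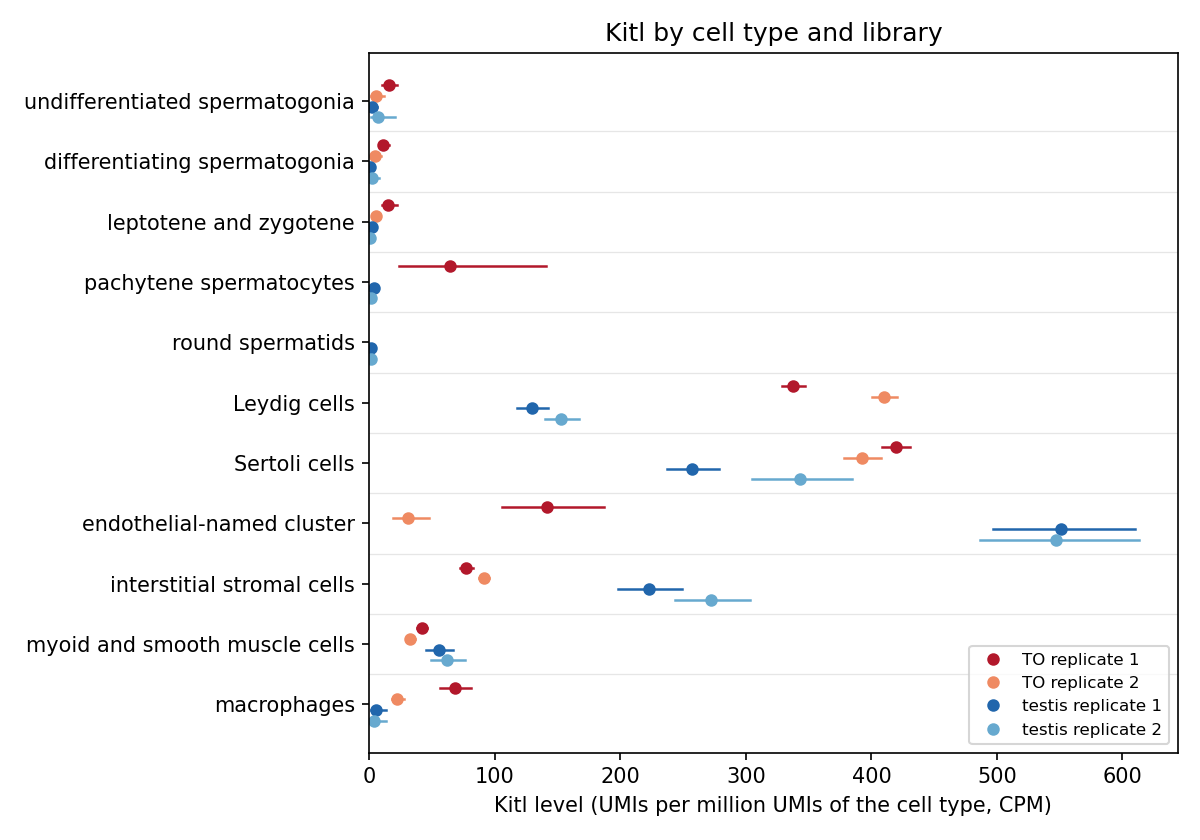
Kitl level (CPM, horizontal axis, linear from 0) by cell type (vertical axis) and library, drawn as for Kit with exact 95% Poisson bars. The TO points lie above the testis points in Sertoli cells, Leydig cells and macrophages and below them in stromal, myoid and endothelial-named cells.

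Sertoli cells kept a high level of the ligand in the TOs. They held 419 and 393 CPM there, from 5557 and 2773 Kitl UMIs in 1353 and 611 cells. In the testes they held 257 and 343 CPM, from 599 and 293 UMIs in 338 and 86 cells. Both TO libraries were above both testis libraries, and the log2 fold change was 0.59 ± 0.19 (SE, n = 2 and 2, edgeR adjusted p = 0.044), which was not called. With each library left out it ranged from 0.38 to 0.77.

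Most Sertoli cells held Kitl. Unthinned, 92.5% and 94.6% of TO Sertoli cells and 74.3% and 89.5% of testis Sertoli cells had at least 1 Kitl UMI, and the median cell held 4 and 4 in the TOs and 1 and 3 in the testes. Thinned to 1500 UMIs the shares were 45.5% and 41.7% in the TOs (exact 95% binomial intervals 42.8 to 48.2% and 37.8 to 45.8%) and 31.4% and 32.6% in the testes (26.4 to 36.6% and 22.8 to 43.5%), without overlap. Differentiating spermatogonia, which should lack Kitl, gave 2.65% and 0% in the TOs and 0% and 0.610% in the testes, where the 2 zeros have exact upper limits of 1.61% and 0.846%. Median depths there were 7711, 8655, 4193 and 5476 UMIs, against 10302, 12081, 6867 and 10033 in Sertoli cells. The clusters lay close in level, with 407 and 390 CPM in the main TO cluster and 477 and 403 CPM in the cluster led by Wfdc18. The Sertoli marker list summed to 8050 and 8377 CPM in TO Sertoli cells and 5180 and 5348 CPM in the testes, and the estimated share of germ cell RNA was 7.52% and 1.58% against 21.6% and 14.7%. With background RNA subtracted, both germ cell RNA and free somatic RNA, the Kitl difference was 0.35 (edgeR adjusted p = 0.18). The free somatic share was put at 5.22% and 3.49% in the TOs and 2.29% and 0.91% in the testes.

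In Leydig cells Kitl was higher in both TO libraries than in both testis libraries, just short of the call. It was at 338 and 410 CPM in the TOs, from 4928 and 6443 UMIs, and at 129 and 153 CPM in the testes, from 437 and 511 UMIs. The groups were well apart, with a mean ratio of 2.65. The log2 fold change was 1.34 ± 0.28 (SE, n = 2 and 2) with an edgeR adjusted p of 0.012, above the threshold of 0.01. It was called with DESeq2 (1.42, DESeq2 adjusted p = 5.7e-05), without the filter on low counts (1.497), without upper limits on genes and UMIs (1.40) and without doublet removal (1.4996). Its range over all alternatives was 1.18 to 1.52.

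The shares of Leydig cells with the ligand were apart as well. Thinned to 1500 UMIs, 35.5% and 42.4% of TO Leydig cells and 17.9% and 18.4% of testis Leydig cells held a Kitl UMI. Within the cluster led by Cyp17a1 the level was 304 and 363 CPM in the TOs and 121 and 142 CPM in the testes, and in the cluster led by Stc1 it was 499 and 513 CPM in the TOs and 233 and 293 CPM in the testes. The Stc1 cluster therefore had less Kit and more Kitl than the Cyp17a1 cluster in both TO libraries, and more of both in the testes, where it had 30 and 8 cells. The TO effect on Kitl exceeded that in Sertoli cells by 0.92 ± 0.26 (log2, SE, edgeR adjusted p = 0.042), which was not called beside 5.45% of genes that were.

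**Figure D4:**
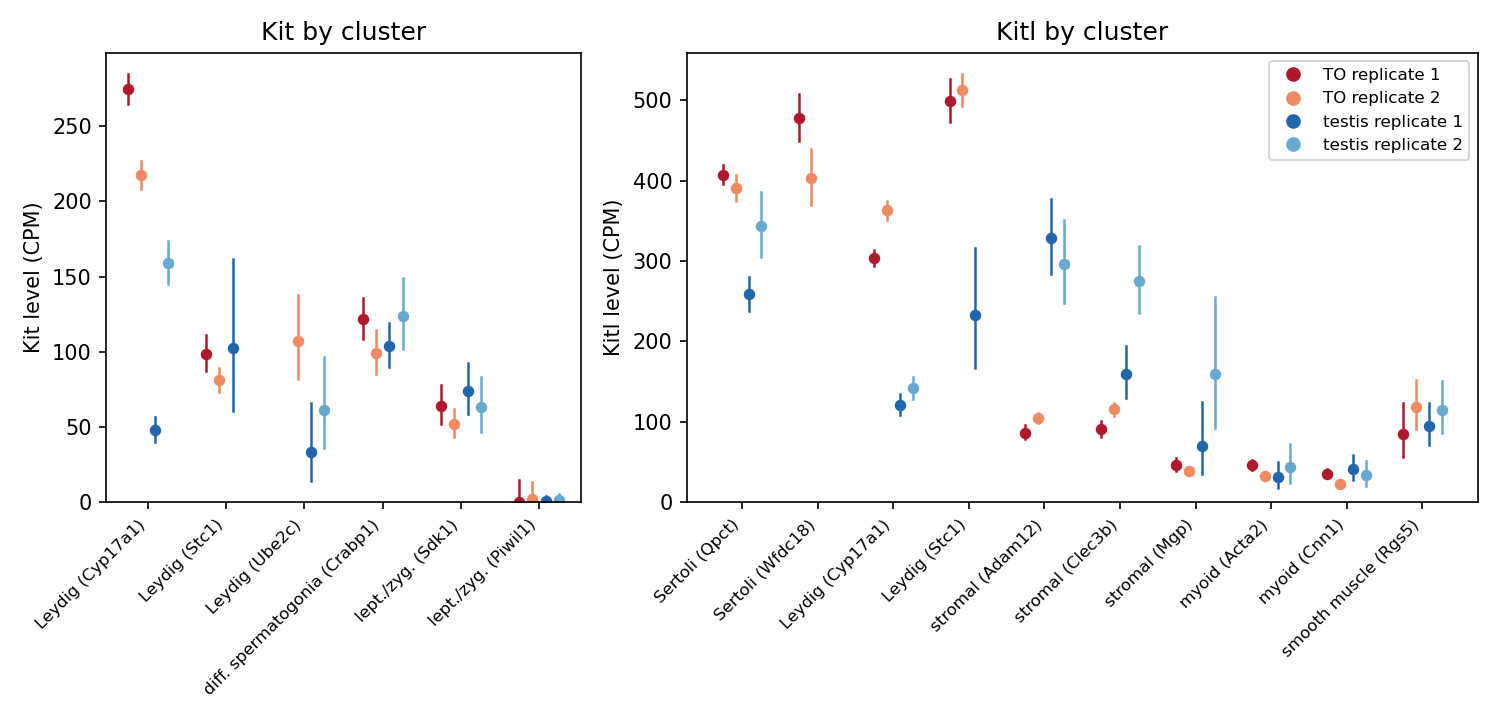
Kit (left) and Kitl (right) levels (CPM, vertical axis, linear from 0) in chosen clusters, each labelled by one of its 10 leading genes. Points are sums of at least 20 cells in 1 library, coloured by library, with exact 95% Poisson bars. Among the Leydig clusters of the TOs, that led by Cyp17a1 holds more Kit (275 and 218 CPM) and less Kitl (304 and 363 CPM) than that led by Stc1.

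Some Leydig cells held both receptor and ligand. Unthinned, at least 1 UMI of each was found in 66.9% and 58.5% of TO Leydig cells and in 11.3% and 50.0% of testis Leydig cells. Thinned to 1500 UMIs the shares were 9.86% and 6.602% against 0.566% and 3.44%. Testis replicate 1 was again the lowest.

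Kitl fell in interstitial stromal cells, the fibroblast-like cells between the tubules. It was at 77.3 and 91.6 CPM in the TOs, from 875 and 2040 UMIs in 2818 and 3225 cells, and at 223 and 272 CPM in the testes, from 306 and 327 UMIs in 583 and 385 cells. The groups did not overlap, and the log2 fold change was -1.44 ± 0.23 (SE, n = 2 and 2, edgeR adjusted p = 0.0039), called beside 17.7% of 15405 genes. The fold held in size but the call was lost without TO replicate 1 (-1.35), without testis replicate 1 (-1.54) or without testis replicate 2 (-1.36), with edgeR adjusted p from 0.013 to 0.019. The shares thinned to 1500 UMIs were 11.5% and 12.5% in the TOs and 24.2% and 30.1% in the testes.

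The stromal difference held in cluster after cluster. The cluster led by Adam12 held 86.7 and 105 CPM in the TOs and 328 and 296 CPM in the testes, that led by Clec3b held 91.1 and 115 CPM against 160 and 275 CPM, and that led by Mgp held 46.2 and 39.0 CPM against 69.7 and 160 CPM. In all 3 the groups did not overlap. The estimated share of germ cell RNA in stromal cells was 5.17% and 0.96% in the TOs and 39.4% and 24.0% in the testes, and germ cells held little Kitl. With germ cell RNA and free somatic RNA both subtracted, the log2 fold change was -2.01 (edgeR adjusted p = 0.027), a larger difference that was not called. That fit called 0 genes of all tested.

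The TO effect on Kitl thus had opposite signs in Sertoli and stromal cells, and the difference between the effects was itself called. It was -2.05 ± 0.28 (log2, SE, stromal minus Sertoli, edgeR adjusted p = 7.3e-06), beside 10% of genes called. In the level itself, stromal cells were below Sertoli cells over the 4 libraries by -1.37 ± 0.46 (log2, SE, edgeR adjusted p = 0.047), not called beside 27.3% of genes. This value averages 2 unlike gaps. Stromal cells held 84.5 CPM against 406 CPM in Sertoli cells of the TOs, and 248 CPM against 300 CPM, with overlap, in the testes.

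Peritubular myoid and smooth muscle cells held 42.2 and 32.7 CPM of Kitl in the TOs and 55.1 and 61.8 CPM in the testes. The groups did not overlap, and the log2 fold change of -0.67 ± 0.23 (SE, n = 2 and 2, edgeR adjusted p = 0.0497) was under the fold threshold, beside 24.3% of genes called. Within the largest cluster, led by Acta2, it was -0.02. The cluster led by Rgs5, a marker of vessel-wall cells, held the most, 85.2 and 119 CPM in the TOs and 94.5 and 115 CPM in the testes, and it had 44 and 55 TO cells against 209 and 131 testis cells. Clustered without Harmony the difference was -1.64 and called (edgeR adjusted p = 0.00095).

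Myoid and smooth muscle cells were far below Sertoli cells in Kitl, by -2.85 ± 0.29 (log2, SE, edgeR adjusted p = 0.00067), in a comparison that called 25.7% of genes. The TO effect was also lower in them than in Sertoli cells, by -1.24 ± 0.27 (log2, SE, edgeR adjusted p = 0.0026), beside 11.2% called. Without the filter on low counts this was -0.75 and was not called (edgeR adjusted p = 0.053).

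The cluster named endothelial held vessel cells in the testes but not in the TOs. Its cells numbered 138 and 67 in the testes, of which 132 and 67 carried at least 3 of 7 endothelial markers. In the TOs it had 53 and 70 cells, of which 1 and 0 did. Cdh5, a junction protein of vessels, was at 470 and 499 CPM in the testes and 30.6 and 0 CPM in the TOs, where 0 allows up to 4.65 CPM. The marker list summed to 3507 and 2950 CPM against 423 and 136 CPM, and Sertoli markers summed to 443 and 348 CPM in the testes and 2543 and 1858 CPM in the TOs. Comparing this cluster between TOs and testes therefore does not compare endothelial cells with endothelial cells.

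Within these bounds, endothelial cells of the testes were the richest source of Kitl per UMI, and they also carried Kit. They held 551 and 547 CPM of Kitl, from 377 and 296 UMIs, and 49.3% and 58.2% of them had a Kitl UMI after thinning. The TO cells of the cluster held 142 and 31.0 CPM from 51 and 20 UMIs. The log2 fold change was -2.96 ± 0.49 (SE, n = 2 and 2, edgeR adjusted p = 0.00042), called beside 27.8% of 9147 genes, and it was -2.13 and not called without TO replicate 2 (edgeR adjusted p = 0.021). Kit was at 21.9 and 24.0 CPM in the testes, from 15 and 13 UMIs, and at 8.35 and 1.55 CPM in the TOs, from 3 UMIs and 1 UMI. That difference of -2.62 ± 0.66 (log2, SE, edgeR adjusted p = 0.0067) was called. The call was lost with each library left out in turn, under DESeq2, without doublet removal (-1.88) and with cells assigned one by one (-0.95).

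The cells with at least 3 endothelial markers in any cluster numbered 7 and 2 in the TOs and 135 and 70 in the testes. They held 2 and 0 Kitl UMIs in the TOs and 376 and 302 in the testes. Of the Kitl UMIs in kept cells, endothelial cells gave 19.5% and 18.6% in the testes. The cluster of that name gave 0.37% and 0.16% in the TOs, where Sertoli cells gave 39.9% and 21.5% and Leydig cells 35.4% and 49.9%. In the testes Sertoli cells gave 31.0% and 18.4%, Leydig cells 22.6% and 32.1% and stromal cells 15.8% and 20.6%. Over all barcodes, removed ones included, the libraries held 24935 and 25708 Kitl UMIs in the TOs and 2661 and 2373 in the testes.

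Macrophages and germ cells held Kitl below the level of Sertoli cells in every library. Macrophages held 68.1 and 22.4 CPM in the TOs, from 123 and 100 UMIs, and 5.18 and 3.72 CPM in the testes, from 4 and 2 UMIs. Kitl was higher in TO macrophages by 3.47 ± 0.70 (log2, SE, edgeR adjusted p = 0.0026), called beside 17.9% of 10613 genes. The level expected from free RNA was 12.6 and 6.77 CPM in the TOs and 4.58 and 1.92 CPM in the testes. With it subtracted, Kitl was not called (5.26, edgeR adjusted p = 0.088), in a fit that called 0 genes of all tested. The call was also lost without doublet removal (2.06, edgeR adjusted p = 0.011).

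The 43 and 19 pachytene spermatocytes of the TOs held 64.5 and 33.8 CPM of Kitl, from 6 and 2 UMIs, where 3 UMIs make 32.3 and 50.7 CPM and free RNA alone would give 26.4 and 0 CPM. Those of the testes held 3.96 and 1.34 CPM. Differentiating spermatogonia held 10.95 and 4.71 CPM of Kitl in the TOs and 0.50 and 2.05 CPM in the testes. The estimated share of somatic RNA in them was 4.57% and 2.31% in the TOs and 1.42% and 0.30% in the testes. Leptotene and zygotene spermatocytes held 15.2 and 5.30 CPM against 2.51 and 0.84 CPM, a difference of 2.36 ± 0.69 (log2, SE, edgeR adjusted p = 0.011) that was not called. It was called without TO replicate 2 (2.98), without testis replicate 1 (3.41) and without the filter on low counts (2.42). The level expected in those spermatocytes from free somatic RNA was 12.9 and 6.91 CPM in the TOs and 2.63 and 2.01 CPM in the testes.

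**Figure D5:**
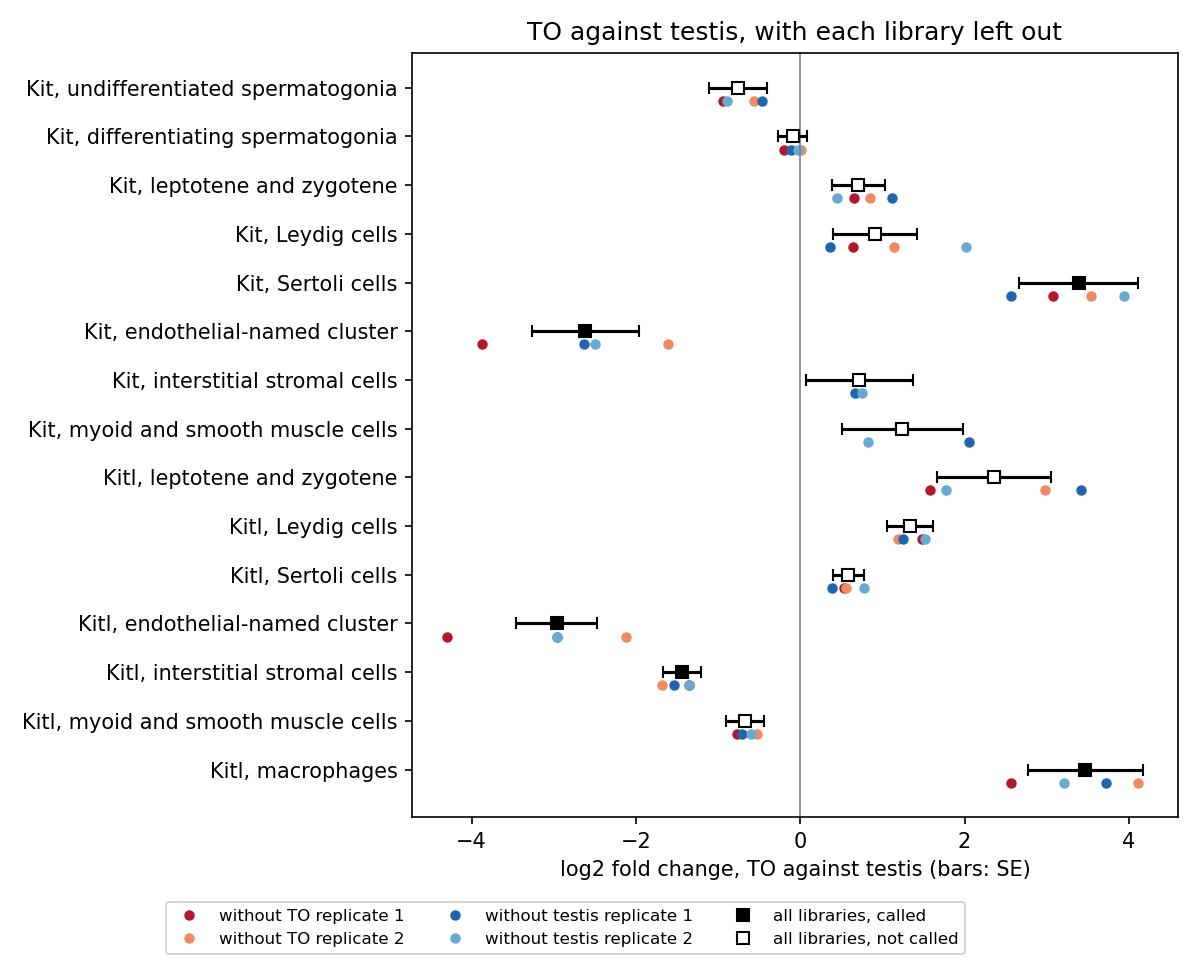
Log2 fold change of TO over testis for Kit and Kitl by cell type. Squares are the edgeR estimates with bars of 1 SE, filled where called, and coloured dots are the values with 1 library left out, where the gene still passed the filter on low counts. Kitl is called lower in stromal and endothelial-named cells and higher in macrophages, and for Kit in Leydig cells the dots run from 0.36 to 2.01.

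The genes that carry the KIT signal inside the cell were then read, first in the cells with the receptor. Of the 35 genes listed as relays, 33 were tested in differentiating spermatogonia and 0 were called in either direction, with a median log2 fold change of 0.13 against -0.02 over all genes. Of 12 inhibitors tested there, 0 were called as well. Among 10 regulators of spermatogonia tested, 3 were higher in the TOs and 0 lower, where 1.18% of all genes were called higher and 13.1% lower. Stra8, a gate to meiosis induced by retinoic acid, was at 853 and 829 CPM in the TOs and 158 and 197 CPM in the testes (log2 fold change 2.19 ± 0.21 SE, edgeR adjusted p = 8.5e-06). Ccnd2, a cyclin of dividing spermatogonia, was at 48.3 and 35.6 CPM against 7.95 and 19.5 CPM, and Sohlh2, a transcription factor that acts upstream of Kit, was at 62.7 and 78.0 CPM against 28.8 and 25.7 CPM. Stra8 and Sohlh2 were also among the markers that named these cells. Other markers of that list went both ways. Dmrtb1 was lower in the TOs, at 58.5 and 51.9 CPM against 247 and 203 CPM. Esx1 was lower too, at 109 and 190 CPM against 219 and 219 CPM. Dnmt3b was higher, and the rest overlapped. The part of these differences in the Kit level was not tested.

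In undifferentiated spermatogonia 0 of 34 relays were called, where 0.704% of all genes were called higher and 9.19% lower. Nanos3, an RNA-binding protein of early germ cells, was lower in the TOs at 9.37 and 23.4 CPM against 53.9 and 41.3 CPM. Lin28a, which blocks let-7 microRNAs, was lower at 43.4 and 41.7 CPM against 96.2 and 71.1 CPM. Grb10, an adaptor that damps receptor kinases, was lower at 6.41 and 6.10 CPM against 27.4 and 20.7 CPM. These were the 3 calls of all lists in this cell type.

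In early spermatocytes 3 relays were called higher and 1 lower of 33 tested, beside 6.25% of all genes higher and 22.2% lower. Pik3r1, the regulatory subunit of PI3-kinase, was at 12.5 and 16.6 CPM in the TOs and 4.18 and 2.51 CPM in the testes. Adam10, a membrane protease of the shedding list, was at 255 and 295 CPM against 103 and 100 CPM (1.29 ± 0.27 log2, SE, edgeR adjusted p = 0.00084). Stra8 was higher here too, at 903 and 960 CPM against 246 and 146 CPM. Nras, the relay called lower, was at 45.6 and 48.1 CPM in the TOs and 87.8 and 91.1 CPM in the testes. The inhibitor Sh2b3 and the growth factor Nrg3 were also called lower. The cluster led by Sdk1 held 84.8% and 85.3% of these cells in the TOs and 62.9% and 44.8% in the testes, and the fit on that cluster alone called 1625 genes in place of 3427. Its part in these values was not tested.

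In Leydig cells 3 of 34 relays tested were higher in the TOs and 0 lower, and 1 of 17 inhibitors was higher. The median log2 fold change of the relays was 0.27 against -0.03 over all genes, and 2.17% of all genes were called higher and 12.1% lower. Gab2, an adaptor for PI3-kinase, was at 867 and 920 CPM in the TOs and 285 and 223 CPM in the testes (1.76 ± 0.29 log2, SE, edgeR adjusted p = 0.0044). Stat5a and Stat5b, transcription factors activated by kinase receptors, were at 48.2 and 42.4 CPM against 14.5 and 18.0 CPM, and at 93.8 and 104 CPM against 43.8 and 36.8 CPM. Spry1, a feedback inhibitor of RAS signals, was at 107 and 76.0 CPM against 6.22 and 5.98 CPM (3.84 ± 0.31 log2, SE, edgeR adjusted p = 0.0004). These 4 genes are printed because they were called on these same libraries, so the gap between their groups is no further support. With background RNA subtracted, the lists gave 0 calls in Leydig cells in place of 5, in an edgeR fit that called 0 genes of all tested (2698 at an unadjusted p below 0.05).

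Sertoli cells, a source of the ligand, had 5 of 16 inhibitors called higher in the TOs and 0 lower. Of 35 relays tested there, 2 were called higher and 0 lower. Over all genes 6.94% were called higher and 15.7% lower. Kit itself was at 7.40 and 5.24 CPM in TO Sertoli cells, where 9.06 and 2.49 CPM were expected from free RNA. Any tie of these genes to KIT in Sertoli cells was not tested. Spred1, a brake on RAF, was at 61.7 and 54.4 CPM in the TOs and 9.88 and 17.6 CPM in the testes. Dusp6, a phosphatase that turns off ERK, was at 68.2 and 73.6 CPM against 16.8 and 31.6 CPM. Dok1, an adaptor that recruits RAS brakes, was at 16.5 and 19.97 CPM in the TOs with 0 UMIs in both testes, which allows up to 1.29 and 3.51 CPM. Among other growth factors for spermatogonia, Gdnf, the Sertoli factor that keeps stem cells, was at 14.8 and 14.3 CPM against 3.44 and 4.68 CPM (2.05 ± 0.39 log2, SE, edgeR adjusted p = 0.0055). With background RNA subtracted, the lists gave 1 call in Sertoli cells in place of 13, in a fit that called 408 genes in place of 3180.

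Stromal cells, with 1.93% of all genes called higher and 15.8% lower, had 1 of 34 relays called higher, Stat3, at 410 and 321 CPM in the TOs and 125 and 118 CPM in the testes. The same gene was called higher in myoid and smooth muscle cells, at 428 and 361 CPM against 90.2 and 78.1 CPM, beside 3.7% of genes higher and 20.6% lower. Macrophages, with 3.05% of genes called higher and 14.9% lower, had Adam17, a protease that sheds membrane proteins, at 195 and 147 CPM against 98.5 and 57.7 CPM. With background RNA subtracted, list calls went from 2 to 0 in stromal cells, from 12 to 2 in myoid and smooth muscle cells and from 3 to 0 in macrophages. Calls over all genes in those fits went from 2732 to 0, from 3748 to 60 and from 1901 to 0. Over the 9 cell types the lists gave 71 calls in all, and 30 with background RNA subtracted, where calls over all genes fell in every type. Undifferentiated and differentiating spermatogonia each had 3 of 63 tested list genes called, beside 9.89% and 14.3% of all genes. Early spermatocytes had 12 of 58 beside 28.4%, Sertoli cells 13 of 67 beside 22.6% and Leydig cells 5 of 73 beside 14.3%. Macrophages had 3 of 59 beside 17.9%, stromal cells 2 of 74 beside 17.7% and myoid and smooth muscle cells 12 of 76 beside 24.3%. The endothelial-named cluster had 18 of 57 beside 27.8%.

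The genes whose levels ran most like the members were read over 47 sums of 13 cell types, among 12944 genes. For Kit these were Tcf7 (Pearson r = 0.81), Adck5 (0.77), Setd6 (0.76), Igfbp2 (0.75) and 1110008P14Rik (0.75). For Kitl they were Sparc (0.93), Fam181b (0.91), Dhrs7 (0.89), Tceal8 (0.88) and Ldhb (0.88). The sums share libraries and depths, so these values describe likeness only.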

How the data were processed

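Single cells were captured with 10x Genomics 3′ chemistry (v3.1), and the authors' Cell Ranger (7.1.0, genome mm10, per the labels) gave the deposited counts, whole UMI counts per gene and cell. Whether introns were counted is not given in the sources used here. After the study's methods, a barcode was kept if it had 1000 to 5000 genes, no more than 20000 UMIs and no more than 10% of them mitochondrial. Doublets were removed with a rebuilt Scrublet procedure (9.46 to 11.7% of barcodes per library). Cells were log-normalized, joined over libraries by Harmony (rebuilt) on 30 components and clustered (leidenalg 0.10.2, resolution 1), germ and somatic cells again apart. A cluster was named from at least 3 markers. Kit and Kitl were kept out of the variable genes and markers. The 4 libraries hold 106577822, 119966959, 77016449 and 74988295 UMIs.

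UMIs were summed per library and cell type and tested with edgeR 4.0.16 (glmQLFit, TMM, filterByExpr, Benjamini-Hochberg over all genes of a fit) on R 4.3.3. A type with fewer than 10 cells in a library was not tested. Comparisons of cell types and of effects carried the library as a block. Background RNA was estimated from markers of the other lineage. For somatic types, free somatic RNA was added to it, estimated from somatic markers in early germ cells of the same library. The SE is the log2 fold change over the root of F. In simulated sums with 4-fold changes, 92.1% of changed genes were recovered in differentiating spermatogonia, 90.1% in Leydig cells, 92.7% in Sertoli cells and 80.6% in the endothelial-named cluster. These sums used the same fixed dispersion for every gene, not that of these libraries. The rates therefore check the procedure and do not measure power for the real spread or for smaller changes.

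The members and lists were chosen with earlier results of these data known. Besides Kit and Kitl, genes were named only from 6 lists (signal relays, signal inhibitors, shedding proteases, spermatogonial regulators, related class III receptors and ligands, other growth factors), up to 4 called genes per list and cell type by size of change, and not all of these are printed. Pattern genes were the 5 highest in Pearson r of log2(CPM + 1) over sums of at least 10 cells. Alternatives were DESeq2 1.42.0, RLE factors, no filter on low counts, each library left out, a replicate block, background subtraction, no upper limits, no doublet removal, resolution 2, no Harmony, cells assigned singly, other thinning and an adjusted p below 0.05. The largest cluster of a type alone and unnamed clusters joined were added after seeing the data. Exons were read from GRCm38 with GENCODE vM21.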

Additional observations from a re-analysis of the deposited data

Results flagged for a closer look

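The TO effect on Kitl differed between cell types by a test of the difference itself. In myoid and smooth muscle cells it was lower than in Sertoli cells by -1.24 (log2), and in interstitial stromal cells by -2.05. No explanation was tested.

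Cells that no marker list named, which enter no main comparison, carried both genes in the TOs above their level in the unnamed cells of the testes. Kit was at 50.8 CPM in TO replicate 1 and 84.1 CPM in TO replicate 2, against 6.91 and 9.12 CPM in the testes. Kitl was at 323 and 243 CPM in the TOs and 23.6 and 14.8 CPM in the testes. These pools were different cells in the groups. Of the 930 and 642 TO cells, 506 and 414 were in a cluster closest to Leydig cells, with 69.1 and 97.6 CPM of Kit. That cluster had 32 and 9 testis cells, with 47.1 and 171 CPM of Kit, so its groups overlapped in Kit. Its Kitl was at 323 and 254 CPM in the TOs and 188 and 218 CPM in the testes. Of the 1032 and 864 testis cells, 693 and 637 were in a cluster led by Fgf14, with 4.43 and 5.32 CPM of Kit, which had 68 and 34 TO cells.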

How the results depend on the processing

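With the replicate number as a block in the edgeR fits, no call of Kit or Kitl on a main comparison changed (Kit in Leydig cells 1.12, Kitl in Leydig cells 1.34, in Sertoli cells 0.59, in stromal cells -1.45), while Kitl in early spermatocytes became called (2.40). The numbers name the libraries only, with 2 pairs and correlations of their deviations from 0.0064 in Leydig cells to 0.17 in stromal cells.

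Signs turned for Kit in undifferentiated spermatogonia with cells assigned singly (2.52), in differentiating spermatogonia without TO replicate 2 (0.015) and in early spermatocytes at resolution 2 (-0.38) and in the largest cluster (-0.28). With libraries left out in turn the log2 fold changes of Kit ran from 0.36 to 2.01 in Leydig cells, -0.94 to -0.47 in undifferentiated and -0.20 to 0.015 in differentiating spermatogonia, and 0.45 to 1.11 in early spermatocytes. Those of Kitl ran from 0.38 to 0.77 in Sertoli cells, 1.19 to 1.52 in Leydig cells, -4.30 to -2.13 in the endothelial-named cluster, -0.76 to -0.53 in myoid cells and -1.69 to -1.35 in stromal cells. Kitl in Leydig cells passed with DESeq2 (1.42), no filter (1.497), no upper limits (1.40) and no doublet removal (1.4996), and in myoid cells without Harmony (-1.64). At an adjusted p below 0.05 alone, Kitl passed in Sertoli (0.59), Leydig (1.34) and myoid (-0.67) cells and early spermatocytes (2.36). Kitl in stromal cells lost its call with background subtracted (-2.01), in a fit that called 0 genes of all tested. Without the filter the Kit difference between Leydig cells and spermatogonia was called (1.48) and the Kitl difference between myoid and Sertoli cells was not (-0.75). With the shares of all genes in the main fits as given above, the lists gave 71 calls. They gave 150 at an adjusted p below 0.05 and 30 with background subtracted. The causes were not tested.

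Numbers of genes called by edgeR over all genes moved by more than 1.5 times in these cases. With background RNA subtracted, 3180 became 408 in Sertoli cells, 3748 became 60 in myoid cells, 2547 became 1668 in the endothelial-named cluster, and 2165, 1901 and 2732 became 0 in Leydig cells, macrophages and stromal cells (2698, 1402 and 2876 at an unadjusted p below 0.05). Without testis replicate 1 there were 124 in Sertoli cells, 979 in Leydig cells, 1023 in macrophages, 2036 in myoid cells, 1095 in stromal cells and 473 of 1053 in undifferentiated spermatogonia. Without testis replicate 2 there were 0 in Sertoli cells (6955 at an unadjusted p below 0.05) and 1709 in stromal cells. Without TO replicate 1 there were 1623 in Sertoli cells and 1119 in the endothelial-named cluster, and without TO replicate 2 there were 1951, 411, 1345 in Leydig cells and 2168 of 3427 in early spermatocytes. With no filter there were 2881 in macrophages and 4882 in stromal cells, and effect differences from Sertoli cells went from 1854 to 2905 (myoid), 1655 to 2822 (stromal, 917 with RLE factors) and 870 to 2257 (Leydig). DESeq2 gave 1637 in the endothelial-named cluster and 670 in undifferentiated spermatogonia. Cells assigned singly gave 3932 and 3072 there and 1757 in early spermatocytes, where resolution 2 gave 1496 (454 in undifferentiated spermatogonia), no Harmony 1667 and the largest cluster 1625 (2477 in myoid cells). With RLE factors the share of calls that were higher went from 42.2 to 53.9% for early spermatocytes against differentiating spermatogonia and from 46.0 to 60.3% for stromal against Sertoli cells, and the median of all genes shifted by -0.14 to 0.29 (log2).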
